A study of Mus musculus with 1019 samples.

Results

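Il10, the gene of interleukin-10, was followed across single regulatory T cells (Tregs) of visceral adipose tissue (VAT) and spleen. It is 1 row of the 23725 genes in the table of unique molecular identifier (UMI) counts, taken by its symbol. The 1019 cells were 330 of VAT library 2, 314 of VAT library 3 and 375 of the spleen library, the last also numbered 2 in its titles. All came from male B6 mice aged 20 months, and all were sorted as DAPI- TCRb+ CD4+ CD25+ cells and sequenced by inDrops, which captures mRNA by its poly(A) tail in droplets. The VAT was epididymal fat digested with collagenase and dispase, whereas spleens were broken up mechanically, so tissue and dissociation cannot be told apart in any VAT value set against spleen. The labels name no animal, and the spleen labels disagree among themselves on tissue and replicate number, so each library was 1 sample, placed by its source name, and no test was run. Of the cell barcodes, 2 occurred in both VAT libraries and 1 in VAT library 3 and spleen. Without these cells Il10 was at 930.1 CPM in VAT library 2, 806 in VAT library 3 and 14 in spleen, at shares of 21%, 20.6% and 0.802%, and the count of genes called higher below was 10 in place of 11, without Rab5c. Intervals given in brackets are exact at the 95% level for counting error alone, and they are too narrow where a gene's UMIs come in clumps.

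IL-10 is a secreted cytokine that binds a receptor made of the IL10RA and IL10RB chains and signals through JAK1, TYK2 and STAT3. It restrains antigen-presenting cells and other inflammatory cells, and Tregs of barrier and adipose tissues are a known source of it. In T cells its transcription has been tied to Maf, Prdm1 (Blimp-1), Batf, Irf4 and Gata3, and its mRNA is bound by decay factors such as tristetraprolin, the product of Zfp36. Mouse Il10 lies on the plus strand at chr1:131019845-131024974 (GRCm38, GENCODE M21) and has 5 exons. Its 3′ untranslated region of 706 bases, after the stop codon, held 6 copies of ATTTA on the transcript strand, the core of the AU-rich elements that decay factors bind. Of 12362 genes with a 3′ untranslated region at least that long, 60.9% held 1 or more copies and 1.59% held as many in their first 706 bases.

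Il10 mRNA was found in VAT Tregs and was nearly absent from spleen Tregs. Il10 had 520 UMIs in VAT library 2, 437 in VAT library 3 and 8 in the spleen library. Scaled to a common library total (counts per 1e6 UMIs, CPM) these are 935 (interval 856 to 1019), 796 (723 to 875) and 13.9 (6.02 to 27.5). The intervals of the VAT libraries overlapped, and both lay far above that of the spleen. VAT library 2 was 67.0-fold (33.8 to 156) above spleen and VAT library 3 57.1-fold (28.7 to 133). Both ratios share the spleen library and rest on its 8 UMIs, 5 of which came from 1 cell. Without the cell with the most Il10 UMIs in each library, spleen was at 5.25 CPM and the folds were 164 and 144.

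About 1 VAT Treg in 5 showed Il10 at equal depth. With every cell thinned at random to 800 UMIs, 70 cells of VAT library 2 (21.2%, interval 16.9 to 26), 64 of VAT library 3 (20.4%, 16.1 to 25.3) and 3 spleen cells (0.800%, 0.165 to 2.32) kept an Il10 UMI. At full depth (median UMIs 1565, 1611 and 1423), the cells with an Il10 UMI were 84 (25.5%), 76 (24.2%) and again 3 (0.800%). Spleen Tregs thus give the only level available for cells with little Il10, and free RNA within the VAT droplets was not tested. Foxp3 is the transcription factor that defines Tregs. Among cells with a Foxp3 UMI at full depth, 33 of 128 (25.8%) and 21 of 98 (21.4%) VAT cells had Il10 after thinning. In spleen it was 0 of 130 such cells, which by the floor of 3 counts allows a share of up to 2.31% of cells with a UMI. With Foxp3 also read after thinning, the VAT shares were 17 of 85 (20.0%) and 11 of 59 (18.6%). In VAT cells without Foxp3 after thinning they were 21.6% and 20.8%.

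The cells that had Il10 often had many copies. At full depth a cell with Il10 held on average 6.19 UMIs (median 4, highest 44) in VAT library 2 and 5.75 (median 3, highest 23) in VAT library 3. The 3 spleen cells held 1, 2 and 5. If the same UMIs had fallen on cells in proportion to depth, 254 and 229 VAT cells would have held one, against the 84 and 76 seen. In VAT library 2, 18 cells with 10 or more Il10 UMIs carried 57.1% of all its Il10, and in VAT library 3, 21 such cells carried 63.8%. At the other end, 17 and 18 cells held a single Il10 UMI. After thinning the means were 3.33 and 2.73 UMIs.

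**Figure D1:**
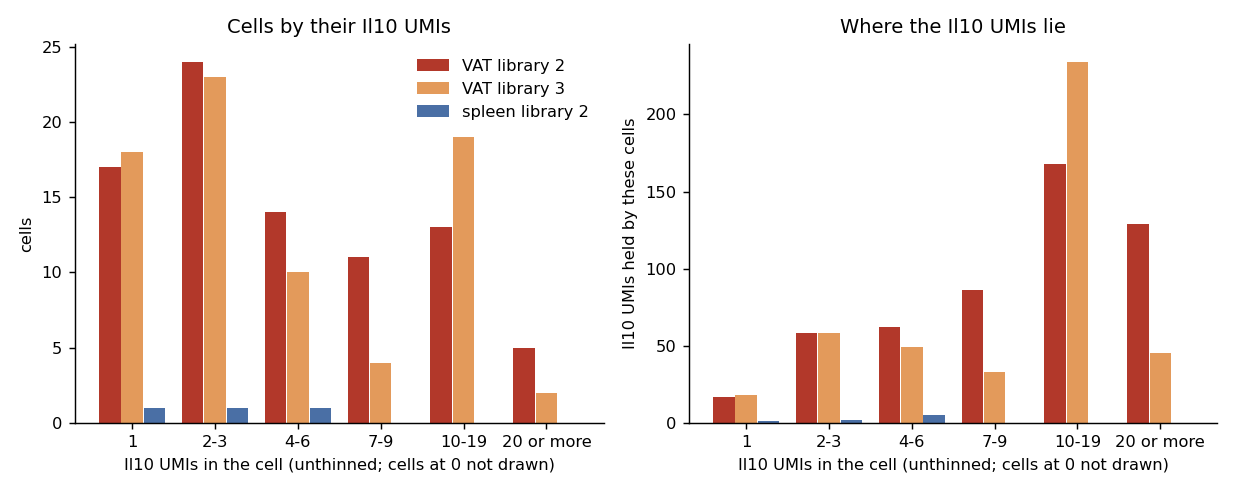
Number of cells (left panel) and the Il10 UMIs they hold (right panel) by the number of Il10 UMIs in the cell at full depth, for VAT library 2, VAT library 3 and the spleen library; cells at 0 are not drawn. The 19 cells of VAT library 3 with 10 to 19 UMIs hold 234 of its 437 Il10 UMIs, and no spleen cell has more than 5.

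No gene of like abundance was found in so few VAT cells at full depth. In VAT library 2, 120 genes had between 347 and 780 UMIs, within 1.5 times the Il10 total, and Il10 was found in the fewest cells of them all (84, against a median of 208). In VAT library 3, among 121 genes with 292 to 655 UMIs, it was again in the fewest (76, median 181). These like-level genes had medians of 2.41 and 2.30 UMIs per cell with a UMI. At 800 UMIs per cell Il10 stayed first in VAT library 2, and in VAT library 3 Slc25a5, a mitochondrial ADP/ATP carrier, was in 63 cells against 64 for Il10, but with 117 UMIs against 175. Some other genes, with totals outside the ranges compared, also had more UMIs per cell with a UMI than those medians. They were not secreted products alone: the surface receptor Klrg1 had 6.94 and 6.24, with totals of 1921 and 1746 UMIs. Areg (994 and 1179 UMIs) and Cxcl2 (1321 and 985) also had totals above the ranges. None of these was set against genes of like total. Areg, an epidermal growth factor family member tied to tissue repair, was in 215 and 218 VAT cells, with 4.62 and 5.41 UMIs in each. Cxcl2, a neutrophil-attracting chemokine, was in 172 and 150 cells, with 7.68 and 6.57 UMIs in each. Penk, the precursor of enkephalin peptides, was in 14 and 5 cells at means of 10.1 and 11.8 UMIs. Its totals of 142 and 59 UMIs lay below the range compared with Il10. The cell with the most Penk held 82 of these UMIs in VAT library 2 and 29 in VAT library 3.

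**Figure D2:**
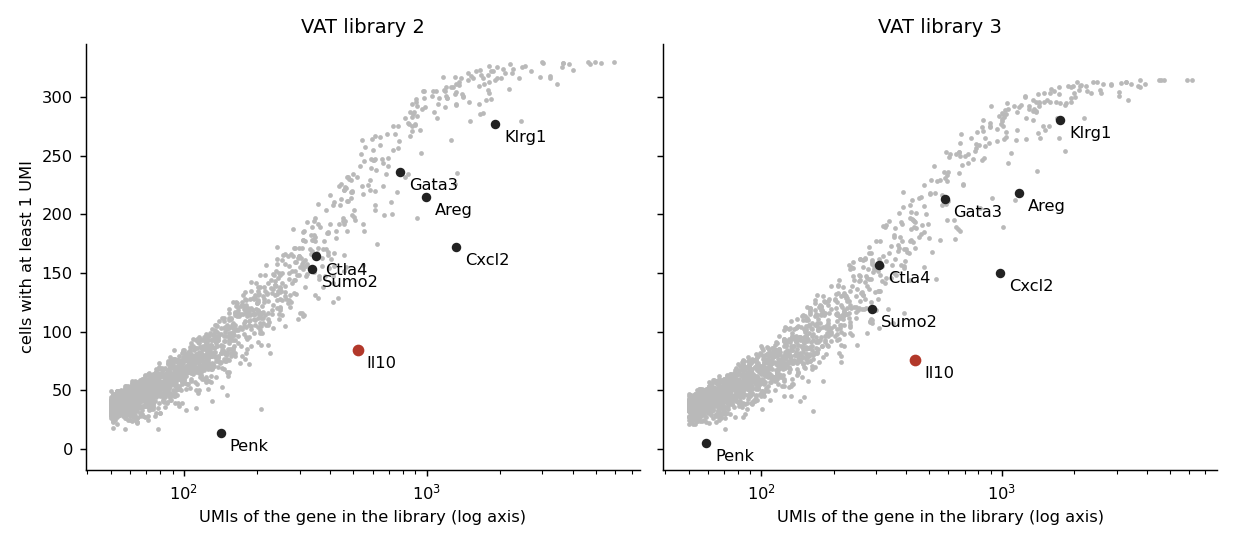
Cells with at least 1 UMI (vertical axis) against UMIs of the gene in the library (horizontal, log axis) for each gene with 50 or more UMIs in VAT library 2 (left) and VAT library 3 (right), unthinned. Il10 (red, 84 and 76 cells) lies below the band of genes with like totals.

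The question put next was how VAT Tregs with an Il10 UMI differ from VAT Tregs without one. Cells were split within each VAT library after thinning, 70 against 260 and 64 against 250, and the UMIs of each gene were summed per class over the class total without Il10. Classes were close in full depth (medians of 1668 UMIs in cells with Il10 and 1532 in cells without in VAT library 2, 1700 and 1564 in VAT library 3) and in genes detected at equal depth (496.5 and 481, then 476 and 472). Of 764 genes with 100 or more thinned UMIs, 11 (1.44%) were at least 1.5-fold higher in cells with Il10 in both libraries and 13 (1.7%) at least 1.5-fold lower. A further 15 (1.96%) passed 1.5-fold in opposite directions. Outside the Sumo2 and Mir684 rows, which are treated below as 1 signal, 8 genes were higher in both libraries. Within VAT library 2 alone 57 genes (7.46%) were higher and 69 (9.03%) lower, and within VAT library 3 alone 61 (7.98%) and 81 (10.6%). The libraries share no cells, and across the eligible genes, which are not independent replicates, their log2 ratios had a Pearson r of 0.089, or 0.024 without the 3 rows described next. The sign was the same for 379 of 764 genes (49.6%). List counts given below are to be read against these shares.

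**Figure D3:**
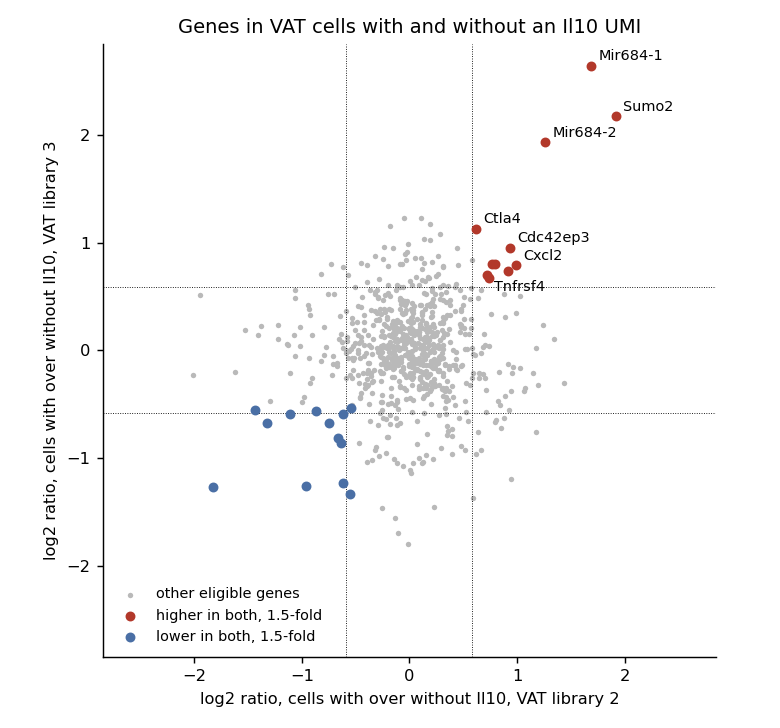
Each point is 1 of 764 genes; axes are log2 ratios of cells with over cells without an Il10 UMI in VAT library 2 (horizontal) and VAT library 3 (vertical), with 0.5 added to each count, and dotted lines mark 1.5-fold. Genes called higher (red, 11) and lower (blue, 13) were called on ratios without the 0.5, so a blue point can lie inside a line; Sumo2 and both Mir684 rows stand alone at the top right.

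Ranked by the smaller of its ratios in the VAT libraries, Sumo2 came first among the eligible genes. It encodes a small ubiquitin-like modifier that is attached to other proteins. In VAT library 2, 75 thinned Sumo2 UMIs fell in the 70 cells with Il10 and 74 in the 260 cells without it, 1345 against 356 CPM, a ratio of 3.78 (interval 2.70 to 5.28). In VAT library 3 it was 67 UMIs in 64 cells and 58 in 250, 1313 against 290 CPM, a ratio of 4.53 (3.14 to 6.55). At full depth 68 of 84 cells with Il10 (81.0%) and 85 of 246 without it (34.6%) had a Sumo2 UMI in VAT library 2, and 53 of 76 (69.7%) and 66 of 238 (27.7%) in VAT library 3. The intervals of these shares did not overlap in either library. Read the other way, Il10 was found at equal depth in 43.3% of cells with Sumo2 against 12% of cells without in VAT library 2, and in 41.9% against 13.8% in VAT library 3.

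Sumo2 also followed the amount of Il10. The groups by Il10 UMIs were formed after the values were known and are a description. Cells with 3 or more Il10 UMIs at equal depth had 1666 CPM of Sumo2 in VAT library 2, those with 1 or 2 had 986 and those with none 356. In VAT library 3 the values were 2338, 815 and 290 CPM. Spleen cells without Il10 had 235 CPM (183 to 297), below the VAT cells without Il10 at 356 (279 to 447) and 290 (220 to 375). These intervals overlapped, which does not show that the levels are equal. Summed over all cells, Sumo2 was 2.09-fold (1.73 to 2.54) and 1.80-fold (1.48 to 2.19) higher in VAT than in spleen. Of the 3 spleen cells with Il10, the one with 5 UMIs held 4 Sumo2 UMIs and 3 of Maf, and the others held no Sumo2.

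**Figure D4:**
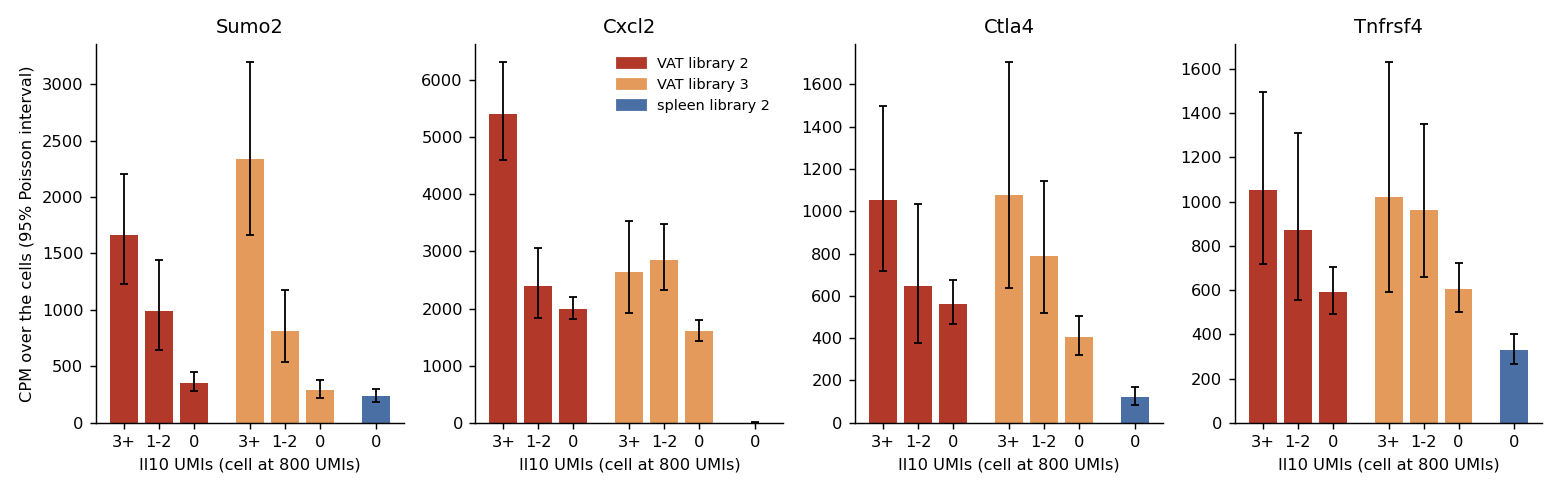
CPM of Sumo2, Cxcl2, Ctla4 and Tnfrsf4 (vertical axes, each from 0) over cells grouped by their Il10 UMIs at 800 UMIs per cell (3 or more, 1 or 2, 0) in VAT library 2, VAT library 3 and the spleen library; bars are sums over the group and lines exact 95% Poisson intervals, and the 3 spleen cells with Il10 are not drawn. Sumo2 has 1666, 986 and 356 CPM in the groups of VAT library 2 and 2338, 815 and 290 CPM in those of VAT library 3.

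The next highest rows, Mir684-1 (ratios of 3.23 and 6.29) and Mir684-2 (2.39 and 3.81), cannot be counted as separate genes. They are annotated microRNA hairpins of 86 bases on chromosomes 2 and 4, and Sumo2 lies on chromosome 11. In the GENCODE M21 transcripts, 5 of 7 Sumo2 transcripts share an unbroken run of 85 bases with Mir684-1 and of 79 bases with Mir684-2, ending 30 and 37 bases from the Sumo2 3′ end, where this assay reads. Of the cells with Sumo2, 85.6% in VAT library 2, 85.7% in VAT library 3 and 83.0% in spleen also had Mir684-1. How the authors' counting placed reads that fit several loci is not given in the sources used here, and the 3 rows are treated as 1 signal of uncertain origin. The Il10 transcript shares no run longer than 11 bases with Sumo2, or longer than 9 with either hairpin, on the transcript strand. Genome sequence around Il10 was not searched.

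Cxcl2 had the most thinned UMIs of the genes called higher, 1102 over both VAT libraries. Per class it had 222 UMIs in cells with Il10 and 416 in cells without in VAT library 2, a ratio of 1.99 (1.68 to 2.35), and 142 and 322 in VAT library 3, a ratio of 1.73 (1.41 to 2.11). Il10 was found in 29.9% of cells with Cxcl2 against 14.2% of cells without in VAT library 2, and in 29.5% against 14.1% in VAT library 3. The step with the amount of Il10 differed between libraries. In VAT library 2 Cxcl2 had 5407, 2390 and 2000 CPM in cells with 3 or more, 1 or 2 and no Il10 UMIs, and in VAT library 3 2638, 2853 and 1610. Spleen had 2 Cxcl2 UMIs in all, so the pairing could not be looked at there.

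Ctla4 and Tnfrsf4, inhibitory and costimulatory receptors of the Treg core list, passed 1.5-fold as well. Ctla4 had 48 UMIs in cells with Il10 and 117 in cells without in VAT library 2, a ratio of 1.53 (1.07 to 2.16), and 45 and 81 in VAT library 3, a ratio of 2.18 (1.48 to 3.17). At equal depth Ctla4 was in nearly the same share of both classes in VAT library 2, 34.3% with Il10 and 31.2% without. In VAT library 3 these shares were 46.9% and 26%. At full depth they were 59.5% and 46.3%, then 71.1% and 43.3%. Tnfrsf4, which encodes OX40, had 54 and 123, a ratio of 1.64 (1.17 to 2.27), and 50 and 121, a ratio of 1.62 (1.14 to 2.27). The other genes called higher were Cdc42ep3, an effector of the GTPase CDC42 (1.90 and 1.91), Arpc5, a subunit of the actin-nucleating ARP2/3 complex (1.86 and 1.65), Rab5c, a GTPase of early endosomes (1.71 in both), Rtn4, a reticulon of the endoplasmic reticulum (1.68 and 1.72), and Limd2, a LIM-domain protein (1.65 and 1.57). In sums over 20 thinning draws, the ratios of all 11 higher rows were above 1 on average over the libraries. Sumo2, both Mir684 rows, Cxcl2 (1.87 and 1.51) and Cdc42ep3 (1.52 and 1.58) passed again. Ctla4 came to 1.46 and 1.92 and Tnfrsf4 to 1.38 and 1.27, short of 1.5 in at least 1 library. Another thinning seed turned this round for Cxcl2 and Ctla4: Cxcl2 came to 1.51 and 1.48, short in VAT library 3, and Ctla4 to 1.61 and 2.37. With class and readout unthinned Cxcl2 was at 1.90 and 1.43 and Ctla4 at 1.70 and 1.74. Over 10 other choices of thinning, totals and cells, Sumo2 and Mir684-1 were called in all 10, Mir684-2 and Ctla4 in 9, Cxcl2 in 7, Cdc42ep3 and Arpc5 in 6, Tnfrsf4 in 5, Rtn4 in 3, Limd2 in 2 and Rab5c in 1.

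The promoters of Sumo2, Cxcl2 and Ctla4 are shown as examples of the rows higher in Il10 cells: a protein modifier, a chemokine and a receptor. Whether the signal of the Sumo2 row comes from the Sumo2 locus is not known. The sequences are the 250 bases before the RefSeq start on GRCm38.p6, at chr11:115536231-115536480 (minus strand), chr5:90903649-90903898 and chr1:60908775-60909024 (plus strand). Capitals mark matches on either strand to GGGANTTNC (NF-kB) or GGAAAA (NFAT, seen as TTTTCC when on the opposite strand).
Sumo2: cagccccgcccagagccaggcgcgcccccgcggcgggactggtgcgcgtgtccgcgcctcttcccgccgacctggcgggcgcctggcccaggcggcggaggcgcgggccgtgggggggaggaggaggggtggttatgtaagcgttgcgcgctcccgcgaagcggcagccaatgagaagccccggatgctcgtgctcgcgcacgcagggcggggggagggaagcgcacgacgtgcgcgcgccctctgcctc
Cxcl2: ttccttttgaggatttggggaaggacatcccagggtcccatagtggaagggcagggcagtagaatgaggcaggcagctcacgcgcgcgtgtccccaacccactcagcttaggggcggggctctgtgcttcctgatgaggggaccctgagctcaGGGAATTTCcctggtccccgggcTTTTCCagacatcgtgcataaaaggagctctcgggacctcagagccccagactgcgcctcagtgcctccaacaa
Ctla4: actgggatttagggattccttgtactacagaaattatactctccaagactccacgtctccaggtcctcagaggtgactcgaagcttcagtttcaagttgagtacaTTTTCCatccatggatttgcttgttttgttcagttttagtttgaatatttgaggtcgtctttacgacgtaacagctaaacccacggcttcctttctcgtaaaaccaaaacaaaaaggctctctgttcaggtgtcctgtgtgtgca
Among promoters of this length, 3.54% of 32851 hold the NF-kB letters and 20.4% the NFAT letters. Cxcl2 has both, at positions -97 and -74 from the start, Ctla4 has the NFAT letters at position -145 and Sumo2 neither. AP-1 (TGANTCA, 6.75%), CRE (TGACGTCA, 1.55%) and TATA box letters (TATAAA, 12.4%), also searched on both strands, were in none of the 3. The promoter of Tnfrsf4, searched as well, held none of the 5. These matches are letters in a window, not sites.

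Of the genes lower in Il10 cells, Fam46a was called under 9 of the 10 other choices and the rest under 3 to 6. Fam46a, which encodes a non-canonical poly(A) polymerase, had 4 UMIs in cells with Il10 and 59 in cells without in VAT library 2, a ratio of 0.253 (0.0667 to 0.682), and 6 and 61 in VAT library 3, a ratio of 0.386 (0.136 to 0.889). Iqgap1, a scaffold protein of the cell cortex, had ratios of 0.588 (0.373 to 0.892) and 0.616 (0.387 to 0.943). Tsc22d3, the glucocorticoid-induced leucine zipper, had 0.373 and 0.603, and Ly6c2, a surface antigen, 0.622 and 0.392. Hspa1b, an inducible heat shock protein whose sequence is close to that of Hspa1a, had 0.615 and 0.546. It was in 8.57% of cells with Il10 and 9.62% without in VAT library 2, then 6.25% and 9.2%. Hspa1a, below the minimum of UMIs, was at 0.746 (0.185 to 2.23) and 0.857 (0.319 to 1.98). The other genes called lower were Cct7, Chd4, Dync1i2, Atp1b3, Ehbp1l1, Anxa11, Surf4 and Itga4, at ratios of 0.339 to 0.658. Over 20 thinning draws all 13 were below 1 on average over the libraries, but Atp1b3 was at 0.549 in VAT library 2 and 1.07 in VAT library 3. Fam46a (0.590 and 0.536) and Ehbp1l1 (0.561 and 0.620) passed 1.5-fold.

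No eligible gene of the VAT Treg list passed 1.5-fold in both libraries, and Tnfrsf9, below the minimum of UMIs, did, with values given below. In this list 14 members had 20 or more thinned UMIs. Of these, 10 had a log2 ratio above 0 in both libraries, none was below 0 in both, and 0 passed 1.5-fold among the 10 eligible. The list's median log2 ratio was 0.22 in VAT library 2 and 0.36 in VAT library 3, beside 0.06 and 0.04 over all 3858 genes with 20 or more UMIs, of which 28.9% lay above 0 in both and 22.1% below 0 in both. In 20 thinning draws 10 of 15 members lay above 0 in both, and with another seed 7 of 15. Klrg1, an inhibitory lectin-like receptor, had ratios of 1.02 (0.872 to 1.20) and 1.29 (1.10 to 1.52). Areg had 1.0 (0.799 to 1.25) and 1.07 (0.870 to 1.32), Gata3 1.12 (0.872 to 1.43) and 1.07 (0.784 to 1.43), and Il1rl1, the IL-33 receptor ST2, 1.21 (0.917 to 1.57) and 0.952 (0.689 to 1.29). Pparg, the lipid-sensing nuclear receptor of VAT Tregs, had few UMIs, with ratios of 1.33 (0.375 to 3.91) and 2.71 (1.02 to 6.86).

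Il10 was found in cells with and without these markers. Its share was 22.6% in cells with a Klrg1 UMI and 16.7% in cells without in VAT library 2, and 22.0% and 15.1% in VAT library 3. For Il1rl1 the shares were 27% and 15.8%, then 21.8% and 19.2%. For Areg they were 21.0% and 21.5%, then 22.6% and 17.8%, and for Foxp3 20.0% and 21.6%, then 18.6% and 20.8%. The intervals overlapped in each of these comparisons. Of the 7 genes Klrg1, Il1rl1, Areg, Gata3, Foxp3, Maf and Tnfrsf9, 5 had a higher Il10 share among cells with the gene in both libraries. With another thinning seed 3 did, and without thinning 6 did. A cell without a UMI of a gene at this depth may still express it.

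**Figure D5:**
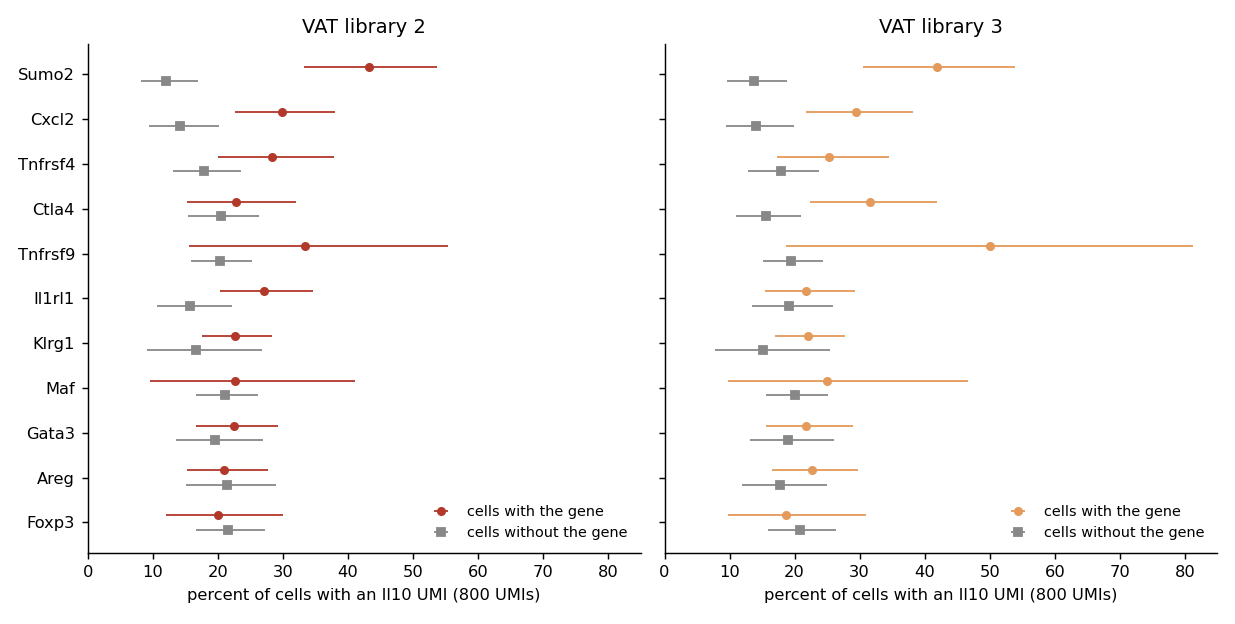
Percent of cells with an Il10 UMI (horizontal axis) among VAT cells with (circles) and without (grey squares) a UMI of each gene at 800 UMIs per cell, in VAT library 2 and VAT library 3, with exact 95% binomial intervals. The intervals separate in both libraries for Sumo2 (43.3% against 12%, 41.9% against 13.8%) and for Cxcl2. Sumo2, Cxcl2, Tnfrsf4 and Ctla4 were added after being called higher on these same counts, so their shares restate that call.

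The lists of genes tied to stimulation gave mixed values. In the activation and costimulation list, 15 members were measured, 7 lay above 0 in both libraries and 1 below in both, and 1 of 8 eligible members passed (Tnfrsf4). Medians were 0.56 and 0.09. Irf8, a transcription factor of activated lymphocytes, had 24 thinned UMIs in all, too few to be eligible. Its ratios were above those of Sumo2 but with wide intervals. It had 10 UMIs in cells with Il10 and 6 in cells without in VAT library 2 (6.22, interval 2.05 to 20.8). In VAT library 3 it had 6 and 2 (11.8, 2.10 to 119). Tnfrsf9 (4-1BB), likewise below the minimum, had 18 and 25 UMIs (2.69, 1.38 to 5.12), then 6 and 8 (2.94, 0.841 to 9.66). No immediate early gene passed. Of 18 measured members of the AP-1 and immediate early list, 4 were above 0 in both libraries, 4 below in both and 0 of 16 eligible passed, with medians of 0.04 and -0.00. Fos had ratios of 0.847 (0.658 to 1.08) and 1.10 (0.871 to 1.37), and Junb 1.09 (0.977 to 1.21) and 0.908 (0.803 to 1.02). At full depth Junb was in 97.9% and 98.4% of VAT cells and 28.5% of spleen cells. The part of dissociation in the level of these genes in VAT was not tested. In the NF-kB list, 6 of 14 measured members lay above 0 in both libraries, 1 below in both and 0 of 7 eligible passed, with medians of 0.23 and -0.08. Its inhibitor Nfkbid was at 1.23 (0.938 to 1.60) and 1.52 (1.16 to 1.99).

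No eligible factor tied to Il10 transcription passed 1.5-fold. Of 26 measured activators, 6 were above 0 in both libraries, 2 below in both and 0 of 9 eligible passed, with medians of 0.21 and -0.22. Maf had 9 UMIs in cells with Il10 and 26 in cells without in VAT library 2 (1.29, 0.532 to 2.84), and 7 and 21 in VAT library 3 (1.31, 0.469 to 3.19). Irf4 had ratios of 2.18 (1.04 to 4.38) and 1.09 (0.316 to 3.04), and Batf 0.895 (0.300 to 2.24) and 3.56 (1.36 to 9.24). Prdm1, below the minimum, had 3 and 22 UMIs (0.509), then 1 and 11 (0.356). The intervals of Maf include a 2-fold difference, which was not detectable at this depth. Between tissues the same factors did not share 1 pattern: Maf had 146 and 113 CPM in VAT and 110 in spleen, Batf 120 and 76.5 against 101, Irf4 135 and 111 against 17.4, and Prdm1 91.7 and 65.6 against 24.4. Repressors were few, with 5 measured, 1 above 0 in both libraries, 2 below in both and medians of -0.20 and -0.19. Ets1 was at 0.761 (0.530 to 1.07) and 0.791 (0.563 to 1.09).

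Of 8 measured mRNA decay factors, 2 were below 0 in both libraries and none above in both, and 0 of 4 eligible passed, with medians of -0.18 and -0.05. Zfp36 had 2992 and 2743 CPM in the VAT libraries and 112 CPM in the spleen library. Within VAT its ratio was 1.17 (0.995 to 1.37) and 0.937 (0.772 to 1.13), with 202 UMIs in cells with Il10 and 643 in cells without, then 137 and 573. Both Il10 and this decay factor had more CPM in VAT than in spleen. Zfp36l1 was at 1.34 (1.02 to 1.74) and 0.905 (0.654 to 1.23).

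On the receiving side, Il10ra, the ligand-binding receptor chain, had 202 and 186 UMIs in VAT and 22 in spleen (363, 339 and 38.4 CPM), and the shared chain Il10rb had 95, 60 and 61 UMIs (171, 109 and 106 CPM). In cells with against without Il10, Il10ra was at 0.932 (0.532 to 1.56) and 1.37 (0.811 to 2.23) and Il10rb at 1.41 (0.705 to 2.67) and 0.891 (0.264 to 2.41). Of 8 measured genes of IL-10 signalling, 2 were above 0 in both libraries, 2 below in both, and the 1 eligible gene did not pass, with medians of 0.27 and -0.26. Stat3 was at 1.36 (0.714 to 2.45) and 0.885 (0.329 to 2.05). Socs3, a feedback inhibitor that STAT3 induces, had 16 and 11 UMIs in VAT and 48 in spleen.

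Of the genes beside Il10 on chromosome 1, Mapkapk2 and Rassf5 had the most UMIs in VAT. Il19, Il20 and Il24, cytokines of the IL-10 family in the same cluster, had 0 UMIs in all 3 libraries, where the floor of 3 counts is 5.23 to 5.47 CPM. Mapkapk2, a kinase that acts on AU-rich mRNA decay and lies 28726 bases downstream, had 118 and 122 UMIs in VAT and 65 in spleen, and ratios of 1.24 (0.589 to 2.44) and 1.22 (0.637 to 2.23) in cells with against without Il10. Rassf5, farther downstream, had 95 and 80 UMIs in VAT and 76 in spleen. Fcmr, which encodes an Fc receptor for IgM, had 0 UMIs in both VAT libraries and 9 in spleen, and Ikbke, an IkB kinase family member, 5 and 6 in VAT and 31 in spleen, lower in VAT where Il10 was higher.

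Other lists gave these counts. Of 13 measured members of the Treg core list, 7 were above 0 in both libraries and 2 below in both, and the 2 that passed among 10 eligible were Ctla4 and Tnfrsf4, with medians of 0.10 and 0.21. Foxp3 was at 0.886 (0.543 to 1.39) and 0.966 (0.543 to 1.64). Among 9 measured other effector products (medians of 0.04 and 0.11), Ctla4 was the 1 of 5 eligible that passed. Among 7 measured other cytokines and chemokines (1.05 and 0.22), Cxcl2 was the 1 of 2 eligible that passed. Il16, below the minimum, had ratios of 2.37 (1.12 to 4.85) and 1.88 (0.861 to 3.89), and Il4 had no UMI in VAT. In the lymphoid homing list, with medians of -0.20 and -0.25, 3 of 7 members were below 0 in both libraries and 1 above, and 0 of 3 eligible passed. Klf2, below the minimum, was at 0.520 (0.181 to 1.23) and 0.560 (0.195 to 1.32). Of 11 measured heat shock genes (medians of 0.02 and -0.14) 1 of 7 eligible passed, Hspa1b, lower. None passed among 7 eligible of 11 measured genes of the T cell receptor and CD4 (medians of 0.31 and 0.07), 12 of 14 of the S100, annexin and galectin families (-0.15 and 0.06), 2 of 12 of the interferon response (-0.18 and 0.53) and 2 of 5 of the cell cycle (-0.92 and 0.10). Icam1 was at least 1.5-fold higher and S1pr1 and Mcm6 at least 1.5-fold lower in both libraries but below the minimum of UMIs. Of all 3094 genes with 20 to 99 thinned UMIs, 5.69% were that much higher and 10.7% that much lower in both.

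Il10 is also made by macrophages, B cells and mast cells, so markers of other cells were summed by class. Treg core genes had 6857 CPM in cells with Il10 and 5938 in cells without in VAT library 2, and 6621 and 5240 in VAT library 3. Of 23 myeloid markers, 4 had a UMI in cells with Il10 in each VAT library. Their sums were 268 CPM in cells with Il10 and 255 in cells without, then 391 and 275, with 0 to 3 UMIs in any cell with Il10. A myeloid marker UMI was in 18.6% of cells with Il10 and 15.8% of cells without in VAT library 2, in 28.1% and 16.4% in VAT library 3, and in 26.9% of spleen cells without Il10. Most were UMIs of Cst3, a protease inhibitor that many cell types express, 11 of 15 in cells with Il10 of VAT library 2 and 14 of 20 in those of VAT library 3. The others there were Apoe (2 in each library), Csf1r and Itgam (1 each in VAT library 2), Ctss (3 in VAT library 3) and Tyrobp (1 in VAT library 3, where cells without Il10 had 0). Lyz2, Cd68, Adgre1, Cd14 and C1qa were at 0 in cells with Il10 in both libraries. In cells without Il10 they were at 0 too, but for 1 Lyz2 UMI in VAT library 2, so these zeros do not separate the classes. The part of these markers in the results was not tested. B cell markers summed to 17.9 CPM in cells with Il10 and 28.8 in cells without, then 78.1 and 75.0, and Cd79a and Ms4a1 were at 0. Of the mast cell markers, Kit had 2 UMIs, in 1 cell with Il10 of VAT library 2, and Cpa3 and Fcer1a were at 0 in cells with Il10 in both libraries. Doublets were not called.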

How the data were processed

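Single Tregs of both tissues were measured by inDrops. What the authors deposited is a table of raw UMI counts, with genes in rows and cells in columns. The submitters' processing notes name TopHat2, SAMtools and the build mm10, with no versions; their annotation, cell filter and doublet removal are not given in the sources used here. Each GEO sample is 1 cell, and libraries were taken from the titles. Whether the libraries came from separate animals is not stated. They held 556099 and 548770 UMIs (VAT library 2 and VAT library 3) and 573622 (spleen), with 887 to 3725, 916 to 4973 and 819 to 4244 UMIs per cell. Ribosomal protein genes took 16.7%, 18.5% and 28.6%.

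UMIs were summed per library or class and scaled to CPM. Cells were thinned without replacement to 800 UMIs (seed 1); no cell held fewer. A gene was eligible with 100 thinned UMIs over both VAT libraries and called at 1.5-fold in both; list members needed 20. log2 ratios add 0.5 to each count. Intervals are exact Poisson for levels, Clopper-Pearson for shares and conditional binomial for ratios. No count model or p-value was used, since each library is 1 sample. Named genes were up to 15 highest and lowest eligible genes among those called, up to 4 members of each of 25 lists, genes within 250 kb of Il10 and a set of Il10 regulators; Fos, Junb, Il4 and Penk were added after their values were seen, as were Slc25a5 and the groups by Il10 UMIs. Sumo2, Cxcl2, Ctla4 and Tnfrsf4 were added to the comparison of Il10 shares after they were called. Il10 and the lists were chosen with earlier results of these data known. Of the lists, markers of B cells, CD8 with NK and innate lymphoid cells, adipocytes, stromal and endothelial cells, mast cells and erythroid cells had no measured member. Alternatives varied the thinning, totals, cells and thresholds. Python 3.11.15, numpy 2.4.6, pandas 2.3.3 and scipy 1.17.1 were used, with GENCODE M21 transcripts and RefSeq promoters.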

Additional observations from a re-analysis of the deposited data

How the results depend on the processing

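No paired analysis was possible because the spleen labels disagree on the replicate number and VAT and spleen share at most 1 number. Without ribosomal protein genes in the totals, Il10 had 1122 and 978 CPM in VAT library 2 and VAT library 3. In cells with a Foxp3 UMI alone it had 1304 CPM in VAT library 2 and 0 CPM in spleen, where the share was 0%, so no fold was computed; VAT library 3 stayed at 806 CPM. Without the cell with the most Il10 UMIs, spleen was at 5.25 CPM and the folds were 164 and 144. Leaving out either VAT library, the fold was 57.1 to 67.0. Thinning lowered the mean per cell with Il10 to 3.33, 2.73 and 1 UMIs in VAT library 2, VAT library 3 and spleen, and at 500 UMIs the share in VAT library 3 was 15%.

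The counts of called genes, 11 higher and 13 lower, depended on the settings. Sums over 20 thinning draws, added after seeing the data, gave 7 higher and 3 lower, of which 5 and 2 were among those called in 1 draw. With seed 2 it was 11 and 14, with 5 and 3 shared. Unthinned readout gave 32 and 48 of 1727 eligible genes, class and readout unthinned 22 and 31 of 1727, an unthinned class 6 lower of 764, Foxp3 cells alone 6 and 3 of 268, a minimum of 50 UMIs 42 and 63 of 1616, of 200 UMIs 5 and 2 of 360, and 2-fold 3 and 2 (Sumo2 and the Mir684 rows, then Cct7 and Fam46a). With a single VAT library 57 to 61 were higher and 69 to 81 lower. Sumo2 was called higher under every setting of this comparison. The number of lists with a median above 0 was 8 in both libraries and 11 to 13 with 1 library left out. With seed 2, 3 of 7 genes, not 5, had a higher Il10 share in both libraries, and without thinning 6 did. Over 10 choices of thinning, totals and cells, no called gene changed the sign of its mean log2 ratio over the libraries, but Rab5c and Rtn4 of the higher and Atp1b3, Chd4, Itga4 and Surf4 of the lower turned in 1 library under at least 1 choice. Depth limits genes below 100 thinned UMIs, most transcription factors among them.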
